A study of Mus musculus with 18 samples.

Results

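The myogenic regulatory factors (Myod1, Myog, Myf5 and Myf6) and the Mef2 factors (Mef2a, Mef2b, Mef2c and Mef2d) are the transcription factors that start and maintain the muscle gene program, and their transcripts were followed here in nuclear and cytoplasmic RNA of myofibers from mice. All probes that the array annotation assigned to these 8 genes were taken, which gave 11 of the 55681 probe names, for 8 of the 35527 gene names on the array. RNA came from pools of 5 to 10 single myofibers dissociated with collagenase from the soleus, the tibialis anterior (TA) or the extensor digitorum longus (EDL) of wild-type female CD1 mice aged 3 months, with 3 arrays for each fraction of each muscle and 18 in all. The labels name no transgene and no treatment. EDL and soleus pools joined fibers of 2 mice and the same replicate number stood for the same mice in both muscles and fractions, whereas the TA pools came from 1 or 2 mice and TA cytoplasm 1 and 2 shared a mouse. A level is the quantile-normalized log2 intensity of a probe, a difference is given in log2, with cytoplasm subtracted from nuclei unless muscles are compared, and ± after a difference is its standard error. The spread behind that error is 1 estimate per probe, shared by all 6 groups. A level measures a transcript relative to the other RNA of its fraction, so fewer nuclei of a kind and less RNA per nucleus cannot be told apart.

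The myogenic regulatory factors are basic helix-loop-helix proteins that bind E-box DNA as dimers with an E protein (Tcf3, Tcf4 or Tcf12). Myf5 and Myod1 specify the muscle lineage and mark activated satellite cells, Myog drives fusion and differentiation, and Myf6 (also called Mrf4) is the member most associated with adult fibers. Mef2 proteins carry a MADS box, cooperate with the myogenic factors on muscle promoters and are held in check by class IIa histone deacetylases. In adult muscle, Myog and the genes of the fetal acetylcholine receptor are known to be kept low by nerve activity.

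The probes themselves are shown first, because probes of the same gene gave different results. Each sequence below is a stretch of 30 bases of a 60-base probe, 5′ to 3′ as deposited, and capitals mark the longest run of at least 15 bases that a probe of another gene on the array also holds. They are given for the probes of Myod1, Myog, Myf6, Mef2a and Mef2b:

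Myod1 A_51_P351166, chr7:53633956-53634015, plus strand: TTTTGTTGTTGTTGTTGTagtccttcagtt

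Myog A_51_P102122, chr1:136188874-136188933, plus strand: tgtttattgtttTGTGTGTTGTTTGTAaag

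Myf6 A_51_P386794, chr10:106930237-106930296, minus strand: TTTAAAAAGAAACTTctcaccacctcaagt

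Mef2a A_55_P1985159, chr7:74379575-74379634, minus strand: tggtgtGAGTGTGTGTGTATGTGTGggtgt

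Mef2a A_65_P08239, chr7:74378751-74378810, minus strand: agaatagcTTTATCTTGTTTTAActtttta

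Mef2b A_55_P1959784, chr8:72691191-72691250, plus strand: cctccacagagttcccgaagtctcaggttc

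Mef2b A_55_P1963232, chr8:72689021-72689080, plus strand: caacagtgcgcaacgcctcttccagtatgc

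Positions are those of the whole probe on mm9, as the scanner files give them. Whether each lies in coding or untranslated sequence was not examined. The Myod1 probe opened with a TTG repeat, and 30 probes of other genes shared a run of at least 15 bases with it, up to 18 bases. The Mef2a probe A_55_P1985159 held a TG repeat, and 17 probes of other genes shared such a run, up to 19 bases. Against this, the Mef2a probe A_65_P08239 and the Myog and Myf6 probes each shared a run of 15 bases with 1 probe of another gene, and the Mef2b probes shared none. The Mef2d probe A_51_P504672 shared a run of 17 bases with 1 probe of another gene. The Mef2c probe, A_55_P2155620, covered 2238 bases of chromosome 13, and the Mef2d probe A_51_P504672 covered 347 bases of chromosome 3, more than their own 60 bases, as for a probe across an intron, whereas the second Mef2d probe, A_55_P1966958, and the Myf5 probe, A_51_P188281, were unbroken.

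Arrays detected between 78.9% and 89.3% of spots as positive and 58.6% to 71.2% as well above background. The soleus arrays matched their label by fiber markers, which are given for EDL and TA together and do not check those labels against each other. Myh7, the slow myosin heavy chain, lay between 14.08 and 15.03 on the 6 soleus arrays and between 7.53 and 11.60 on the others, and Myh4, the fast type 2b chain, lay between 7.29 and 11.59 in soleus and between 13.40 and 14.54 elsewhere. The arrays did not fall evenly on the 4 slides. Slide 1 held all EDL and soleus cytoplasm arrays and TA cytoplasm 1, slide 2 held all EDL and soleus nuclei arrays, slide 3 held TA cytoplasm 3, and slide 4 held TA cytoplasm 2 and the 3 TA nuclei arrays. In EDL and soleus the fraction and the slide cannot be told apart, nor can TA and slide in the nuclei. TA cytoplasm 1 stood apart from TA cytoplasm 2 and 3 for several of the genes described here, and several results of member probes are given with and without it.

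**Figure D1:**
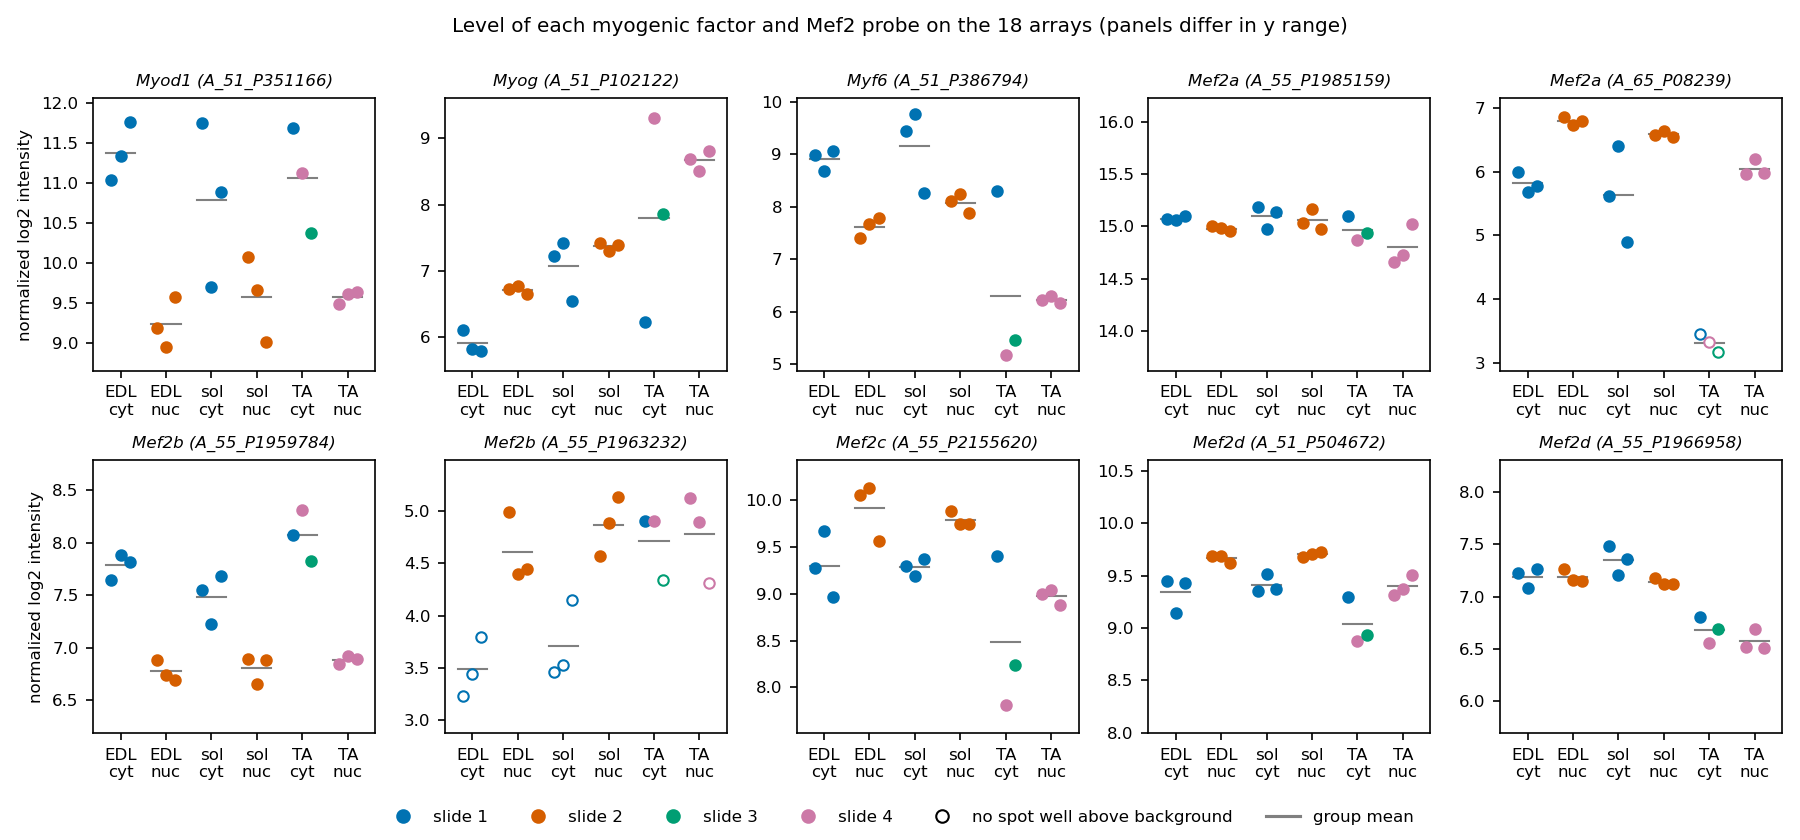
Normalized log2 intensity (y axis, a different range in each panel) of the 10 measurable probes on the 18 arrays, grouped by muscle and fraction on the x axis (cyt, cytoplasm; nuc, nuclei; sol, soleus). Each point is 1 array coloured by slide, open points had no spot well above background and grey lines are group means; the open points of Mef2a A_65_P08239 are the 3 TA cytoplasm arrays, from 3.18 to 3.45.

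Myod1, the lineage factor, was lower in the nuclear than in the cytoplasmic fraction in each of the 3 muscles. In EDL its level was 11.04, 11.34 and 11.76 in the cytoplasm and 9.19, 8.95 and 9.58 in the nuclei. In soleus it was 11.75, 9.71 and 10.89 in the cytoplasm and 10.07, 9.66 and 9.01 in the nuclei. In TA it was 11.68, 11.12 and 10.38 in the cytoplasm and 9.49, 9.61 and 9.64 in the nuclei. The fractions did not overlap in EDL and TA, whereas in soleus the second cytoplasm array lay below the first nuclei array. Such a lack of overlap, in either direction, was shown by 67.1% of all probes in EDL, 56.8% in soleus and 60.5% in TA. These shares also stand beside each statement below on the overlap of fractions. EDL showed a difference of -2.14 ± 0.44 (adjusted p = 0.00105, limma), soleus one of -1.20 ± 0.44 (adjusted p = 0.0388) and TA one of -1.48 ± 0.44 (adjusted p = 0.0101). Over the 3 muscles it was -1.61 ± 0.25, a 3.04-fold lower level (adjusted p = 4e-05). Of all probes tested, 40.6% to 52.9% passed the threshold within a single muscle (46.8% in EDL, 40.6% in soleus and 52.9% in TA) and 70% did so over the 3 muscles, so passing it was common.

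The same Myod1 reading came from 10 spots on each array, which makes the error of a single array visible. The spread between those spots was small, with a median SD of 0.05 in TA nuclei to 0.33 in soleus cytoplasm, and the SD between arrays was 1.03 in soleus cytoplasm, 3.07 times that of the spots. The soleus call was lost in 8 of 28 alternatives, 4 of them the omission of a single soleus array, and its size fell to -0.032 without scaling between arrays. The TA call was lost in 3 of 28, among them the omission of TA cytoplasm 1 (-1.17 ± 0.47, adjusted p = 0.0505). The direction was lower in nuclei in every alternative, and the call over the 3 muscles was lost in 1 of 28, with slide as a random block (adjusted p = 0.054). Among the 30 probes of other genes that shared at least 15 bases with the Myod1 probe, the median difference over the 3 muscles was -0.85, 25 of 30 were below 0, and the median of all probes was -0.08. Whether those transcripts contributed to the Myod1 reading was not tested.

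Myf5, the other lineage factor and a satellite cell marker, could not be measured. Its 10 spots per array gave a value on 1 of 18 arrays only, soleus cytoplasm 2, at 2.46 and not well above background. One of the 10 spots was positive on all 18 arrays, and the scanner software had marked it as an outlier on all 18. Of the other 162 spot readings, 2 were positive, and their processed intensity ran from 3.12 to 30.1. Myf5 therefore entered no test, and a level below background says nothing of its true level.

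Myf6, the factor of adult fibers, was lower in nuclei over the 3 muscles (-0.82 ± 0.34, adjusted p = 0.0415, limma). With all arrays it was not past the threshold in any single one. In EDL its level was 8.99, 8.69 and 9.06 in the cytoplasm and 7.41, 7.68 and 7.78 in the nuclei. In soleus it was 9.44, 9.77 and 8.26 in the cytoplasm and 8.10, 8.25 and 7.88 in the nuclei. In TA it was 8.30, 5.17 and 5.45 in the cytoplasm and 6.22, 6.29 and 6.17 in the nuclei. The fractions did not overlap in EDL or soleus, as for 67.1% and 56.8% of all probes in either direction. In TA, cytoplasm 1 lay above and cytoplasm 2 and 3 below all 3 nuclei arrays. EDL gave -1.29 ± 0.58 (adjusted p = 0.0819, limma), soleus -1.08 ± 0.58 (adjusted p = 0.154) and TA -0.082 ± 0.58 (adjusted p = 0.915). Without TA cytoplasm 1 the TA difference turned to 0.91 (adjusted p = 0.0305), so no direction could be given for TA. The EDL and soleus differences, lower in nuclei, also passed the threshold without that array. The call over the 3 muscles was lost in 18 of the 28 alternatives and its direction turned in 1, with slide as a random block.

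Myog, the differentiation factor, gave higher mean levels in nuclei in all 3 muscles, with no call when all arrays were used. In EDL its level was 6.10, 5.83 and 5.79 in the cytoplasm and 6.74, 6.77 and 6.65 in the nuclei, without overlap. In soleus it was 7.23, 7.43 and 6.55 in the cytoplasm and 7.42, 7.30 and 7.39 in the nuclei. In TA it was 6.23, 9.31 and 7.86 in the cytoplasm and 8.69, 8.5 and 8.82 in the nuclei. The fractions overlapped in soleus and TA. The difference over the 3 muscles was 0.66 ± 0.29 (adjusted p = 0.0505, limma), and the single muscles gave 0.81 ± 0.50 for EDL, 0.30 ± 0.50 for soleus and 0.87 ± 0.50 for TA (adjusted p = 0.191, 0.656 and 0.152). Without TA cytoplasm 1 the EDL difference passed the threshold. In TA the value turned on single arrays, with 0.087 without TA cytoplasm 1 (adjusted p = 0.844) and 1.62 without TA cytoplasm 2 (adjusted p = 0.00239). On slide 4 alone the TA value was -0.64, where the lone TA cytoplasm array was assumed to vary like the other groups. Myog had 10 spots per array with a median SD of 0.10 to 0.13 in each group, so the SD of 1.54 between TA cytoplasm arrays was 12.5 times that of the spots.

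**Figure D2:**
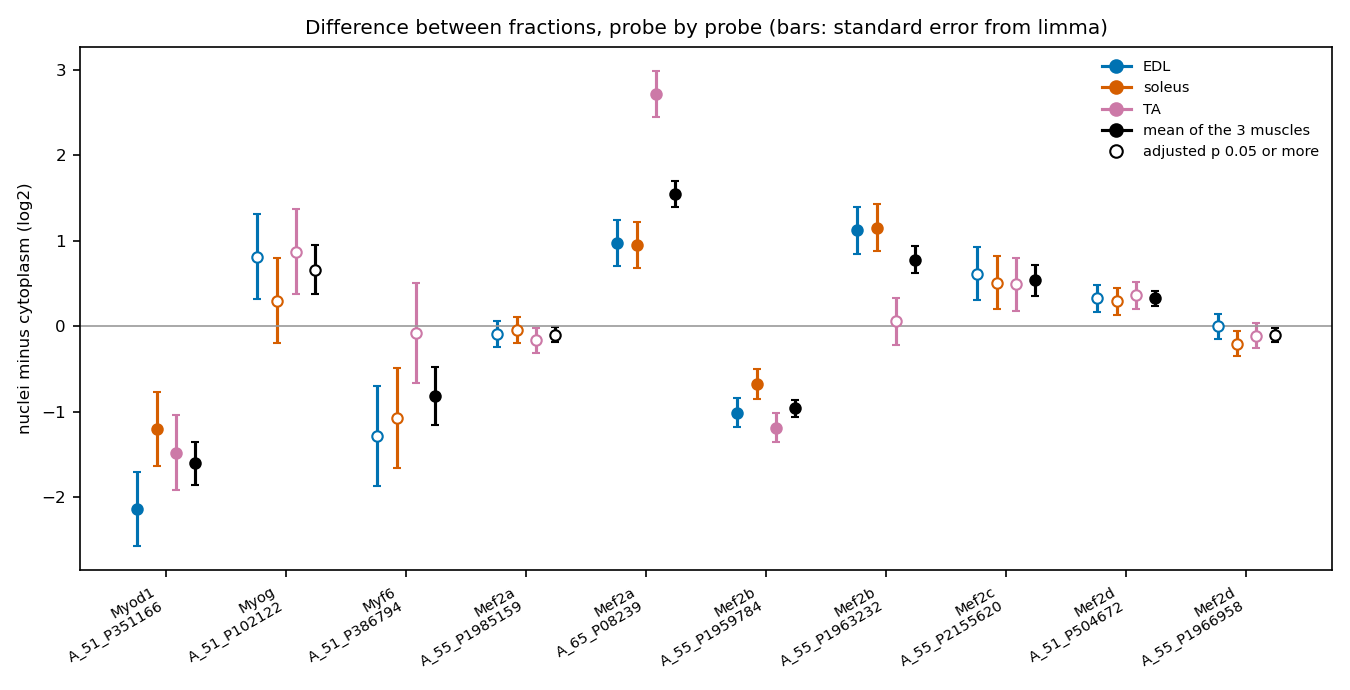
Nuclei minus cytoplasm difference in log2 (y axis) for the 10 measurable probes (x axis) in EDL, soleus, TA and as the mean of the 3 muscles. Points are estimates, bars their standard errors from limma, and filled points have an adjusted p under 0.05; Myod1 lies below 0 in all 3 muscles, and the probes of Mef2a and of Mef2b differ from each other. Mef2a A_65_P08239 in TA and Mef2b A_55_P1963232 in EDL and soleus are fitted on cytoplasm readings not well above background.

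For Mef2a, the 2 probes gave different answers. Probe A_65_P08239 was higher in nuclei in every muscle. Its level in EDL was 5.99, 5.68 and 5.78 in the cytoplasm and 6.85, 6.73 and 6.79 in the nuclei. In soleus it was 5.61, 6.41 and 4.90 in the cytoplasm and 6.57, 6.64 and 6.55 in the nuclei. In TA it was 3.45, 3.33 and 3.18 in the cytoplasm and 5.95, 6.19 and 5.98 in the nuclei. The fractions did not overlap in any muscle, and none of the 3 TA cytoplasm arrays read the probe well above background. Of all probes, 67.1% showed no overlap in either direction in EDL, 56.8% in soleus and 60.5% in TA. The difference was 0.97 ± 0.27 in EDL (adjusted p = 0.00777, limma) and 0.95 ± 0.27 in soleus (adjusted p = 0.0111). In TA the nuclei were at least 4.36-fold higher, taking the lowest signal well above background on each TA cytoplasm array as the bound, and the fitted difference was 2.72 ± 0.27 (adjusted p = 3.14e-06). Over the 3 muscles the fitted value was 1.55 ± 0.15 (adjusted p = 4.22e-07), which rests in part on those TA cytoplasm readings.

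The fraction difference of this Mef2a probe varied with the muscle. With all arrays it was the only 1 of the 10 member probes to pass the moderated F test of the interaction (adjusted p = 0.0317), a test that 1.67% of all probes passed. The test used the TA cytoplasm readings as they stood, whereas their bound puts the TA difference at 2.12 or more. The call was lost when any 1 of the 9 nuclei arrays or TA cytoplasm 2 was left out, with adjusted p values of up to 0.0891, and it was 0.464 with normexp background correction and 0.367 with slide as a random block. Without TA cytoplasm 1, Myf6 passed the interaction test too (adjusted p = 0.022, moderated F test), as did 1673 of 39612 probes.

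The other Mef2a probe, A_55_P1985159, stayed between 14.66 and 15.18 on all 18 arrays. For EDL the difference was -0.095 ± 0.15, for soleus -0.041 ± 0.15 and for TA -0.17 ± 0.15, and it was -0.10 ± 0.09 over the 3 muscles (adjusted p = 0.309). The 17 probes of other genes that shared at least 15 bases with its TG repeat read between 2.57 and 15.89, with 11 of them above 14, and the 16 of them tested had differences over the 3 muscles from -1.25 to 1.44, with 6 below 0. Whether this probe measured Mef2a alone was not tested. A further probe that the annotation described as Mef2a under a transcript name fell outside the rule and was not used here.

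The 2 Mef2b probes moved in opposite directions. Probe A_55_P1959784 read 7.65, 7.88 and 7.82 in EDL cytoplasm against 6.88, 6.74 and 6.70 in EDL nuclei. In soleus it read 7.55, 7.23 and 7.69 in the cytoplasm against 6.89, 6.66 and 6.89 in the nuclei, and in TA 8.08, 8.32 and 7.83 against 6.85, 6.92 and 6.89. The fractions did not overlap in any muscle, as for 67.1% of all probes in EDL, 56.8% in soleus and 60.5% in TA in either direction. Nuclei minus cytoplasm was -1.01 ± 0.17 for EDL, -0.68 ± 0.17 for soleus and -1.19 ± 0.17 for TA (adjusted p = 0.000267, 0.00618 and 6.22e-05, limma), and -0.96 ± 0.10 over the 3 muscles (adjusted p = 6.54e-07).

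The second Mef2b probe, A_55_P1963232, was faint. It read 3.23, 3.44 and 3.79 in EDL cytoplasm and 3.46, 3.53 and 4.14 in soleus cytoplasm, on no array well above background. The nuclei read 4.99, 4.40 and 4.44 in EDL and 4.57, 4.88 and 5.13 in soleus, above every cytoplasm array of the same muscle. The nuclei were thus at least 1.39-fold higher in EDL (fitted adjusted p = 0.00388, limma) and at least 1.48-fold higher in soleus (adjusted p = 0.00402). In TA it read 4.90, 4.90 and 4.34 in the cytoplasm and 5.12, 4.89 and 4.31 in the nuclei, a difference of 0.06 ± 0.28 (adjusted p = 0.874) with overlapping fractions. The 3 differences were not shown to vary with the muscle (interaction adjusted p = 0.2). Over the 3 muscles the fitted difference was 0.78 ± 0.16 (adjusted p = 0.000462, and 0.0769 with slide as a random block), a size that rests on EDL and soleus cytoplasm readings not well above background.

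Mef2c, which in skeletal muscle is linked to sarcomere integrity and slow fiber genes, was higher in nuclei over the 3 muscles (0.54 ± 0.18, a 1.45-fold higher level, adjusted p = 0.0147, limma). Its level in EDL was 9.28, 9.67 and 8.96 in the cytoplasm and 10.05, 10.13 and 9.57 in the nuclei. In soleus it was 9.30, 9.19 and 9.37 in the cytoplasm and 9.89, 9.75 and 9.75 in the nuclei. In TA it was 9.41, 7.81 and 8.24 in the cytoplasm and 9.00, 9.05 and 8.88 in the nuclei. The fractions overlapped in EDL and TA and not in soleus. No single muscle passed the threshold, with 0.61 ± 0.31 for EDL, 0.51 ± 0.31 for soleus and 0.49 ± 0.31 for TA (adjusted p = 0.117, 0.206 and 0.199). Without TA cytoplasm 1, the TA difference was 0.95 (adjusted p = 0.00288), and those of EDL and soleus also passed (adjusted p = 0.0182 and 0.0485), with unchanged differences and a standard error of 0.20 in place of 0.31.

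Mef2d, the most widely expressed Mef2 gene, changed little. Probe A_51_P504672 was between 8.87 and 9.51 in the cytoplasm and between 9.31 and 9.72 in the nuclei, and its difference over the 3 muscles was 0.33 ± 0.09 (adjusted p = 0.00484, limma), with 0.29 to 0.36 in the single muscles and none past the threshold with all arrays. Without TA cytoplasm 1, its differences in EDL and TA passed. Probe A_55_P1966958 was between 6.55 and 7.48 in the cytoplasm and between 6.51 and 7.26 in the nuclei, with a difference of -0.11 ± 0.08 (adjusted p = 0.271). The direction of the second probe turned without scaling between arrays, where the median of all probes also moved, from -0.08 to 0.42.

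Counted together, 7 of the 10 tested probes passed the threshold over the 3 muscles, with 4 higher and 3 lower in nuclei, beside 70% of all probes (31.3% higher and 38.6% lower). It was 4 of 10 in EDL, 4 of 10 in soleus and 3 of 10 in TA, beside 46.8%, 40.6% and 52.9% of all probes. The members' shares lay near those of the array as a whole or below.

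Between EDL and soleus, which shared slides within each fraction and mice by number, no member probe passed the threshold in nuclei (1.59% of all probes did) or in cytoplasm (1.48%). Of 10 listed myofiber markers, 2 were higher and 2 lower in soleus nuclei, and 3 higher and 2 lower in soleus cytoplasm. By the unadjusted limma p under 0.05, 1 of 10 member probes passed in cytoplasm and 0 in nuclei, beside 14.6% and 9.65% of all probes. That 1 was Myog, higher in soleus by 1.16 ± 0.50 in the cytoplasm (adjusted p = 0.292, limma) and by 0.65 ± 0.50 in the nuclei (adjusted p = 0.825). All 3 soleus arrays lay above all 3 EDL arrays in both fractions, a lack of overlap in this direction that 6.51% of all probes showed in cytoplasm and 22.1% in nuclei.

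More of the members differed between the arrays labelled TA and the others, but muscle and slide cannot be told apart there, since 5 of the 6 TA arrays lay on slides that held no EDL or soleus array. In nuclei 4 of 10 probes passed for at least 1 pair of muscles (24.6% of all probes), and in cytoplasm 6 of 10 did (30.6%). By pair the shares of all probes were 17.7% for TA against EDL nuclei, 19.9% for TA against soleus nuclei, 12.8% for TA against EDL cytoplasm and 29.2% for TA against soleus cytoplasm. Myog in TA nuclei, at 8.5 to 8.82, lay above EDL nuclei at 6.65 to 6.77 and soleus nuclei at 7.30 to 7.42, by 1.95 ± 0.50 and 1.30 ± 0.50 (adjusted p = 0.016 and 0.0766, limma). The groups did not overlap, as for 60.6% of all probes against EDL and 61.6% against soleus. Myf6 ran the other way, at 6.17 to 6.29 in TA nuclei against 7.41 to 7.78 in EDL and 7.88 to 8.25 in soleus, with differences of -1.40 ± 0.58 and -1.85 ± 0.58 (adjusted p = 0.109 and 0.0366). Without TA cytoplasm 1, the Myf6 difference from EDL and the Myog difference from soleus also passed. The standard errors carry the spread of all groups. The SD of Myf6 was 0.06 in TA, 0.19 in EDL and 0.18 in soleus nuclei, against 1.73 in TA cytoplasm. That of Myog was 0.16, 0.06 and 0.07 in the same nuclei, against 1.54. Mef2c was lower in TA nuclei than in EDL nuclei by -0.94 ± 0.31 (adjusted p = 0.0476, and 0.0503 with the replicate number as a block), a call lost in 16 of 28 alternatives, among them the omission of any 1 of the 9 nuclei arrays. Mef2c was also lower in TA than in soleus nuclei by -0.82 ± 0.31 (adjusted p = 0.0746, limma), a difference that passed without TA cytoplasm 1. The call for Myf6 against soleus was lost in 9 of 28 and that for Myog against EDL in 4. Mef2d A_55_P1966958 was lower than in EDL by -0.62 ± 0.15 and than in soleus by -0.57 ± 0.15 (adjusted p = 0.0115 and 0.0139), calls lost in 3 and 5 of 28. With slide as a random block, none of the 10 probes passed between muscles in nuclei.

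In the cytoplasm the 3 TA arrays were not alike. TA cytoplasm 1, on slide 1 with the EDL and soleus cytoplasm arrays, read Myog at 6.23 and Myf6 at 8.30, within or near the EDL and soleus ranges, while TA cytoplasm 2 and 3, on other slides, read Myog at 9.31 and 7.86 and Myf6 at 5.17 and 5.45. With all 3 arrays Myog was higher in TA than in EDL by 1.89 ± 0.50 (adjusted p = 0.0233, limma) and than in soleus by 0.73 ± 0.50 (adjusted p = 0.28). Without TA cytoplasm 1 these differences were 2.68 (adjusted p = 3.64e-05) and 1.51 (adjusted p = 0.00286). For Myf6 the differences were -2.60 ± 0.58 from EDL and -2.85 ± 0.58 from soleus (adjusted p = 0.0126 and 0.00309), and -3.60 and -3.84 without that array. The calls against EDL were lost in 7 of 28 alternatives for Myog and 3 for Myf6. Mef2c in TA cytoplasm differed from EDL by -0.82 ± 0.31 and from soleus by -0.80 ± 0.31. Neither passed with all arrays (adjusted p = 0.0955 and 0.0635, limma), and both passed without TA cytoplasm 1, at -1.28 and -1.26. By the labels TA cytoplasm 1 and 2 shared a mouse.

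Other cytoplasmic differences of TA did not rest on that array. Mef2a A_65_P08239 was at least 3.72-fold lower in TA than in EDL cytoplasm and at least 3.30-fold lower than in soleus cytoplasm (fitted adjusted p = 0.000175 and 5.5e-05, limma), and TA cytoplasm 1, at 3.45, lay with the other TA arrays. Mef2b A_55_P1963232 passed against both EDL and soleus (adjusted p = 0.0126 and 0.0146) with higher TA readings, but only 2 of those 9 cytoplasm arrays, both from TA, were well above background. Mef2b A_55_P1959784 was higher than in soleus by 0.59 ± 0.17 (adjusted p = 0.0208), and Mef2d A_55_P1966958 was lower than in EDL by -0.51 ± 0.15 and than in soleus by -0.67 ± 0.15 (adjusted p = 0.0338 and 0.00452), of which the call against EDL was lost in 15 of 28 alternatives.

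**Figure D3:**
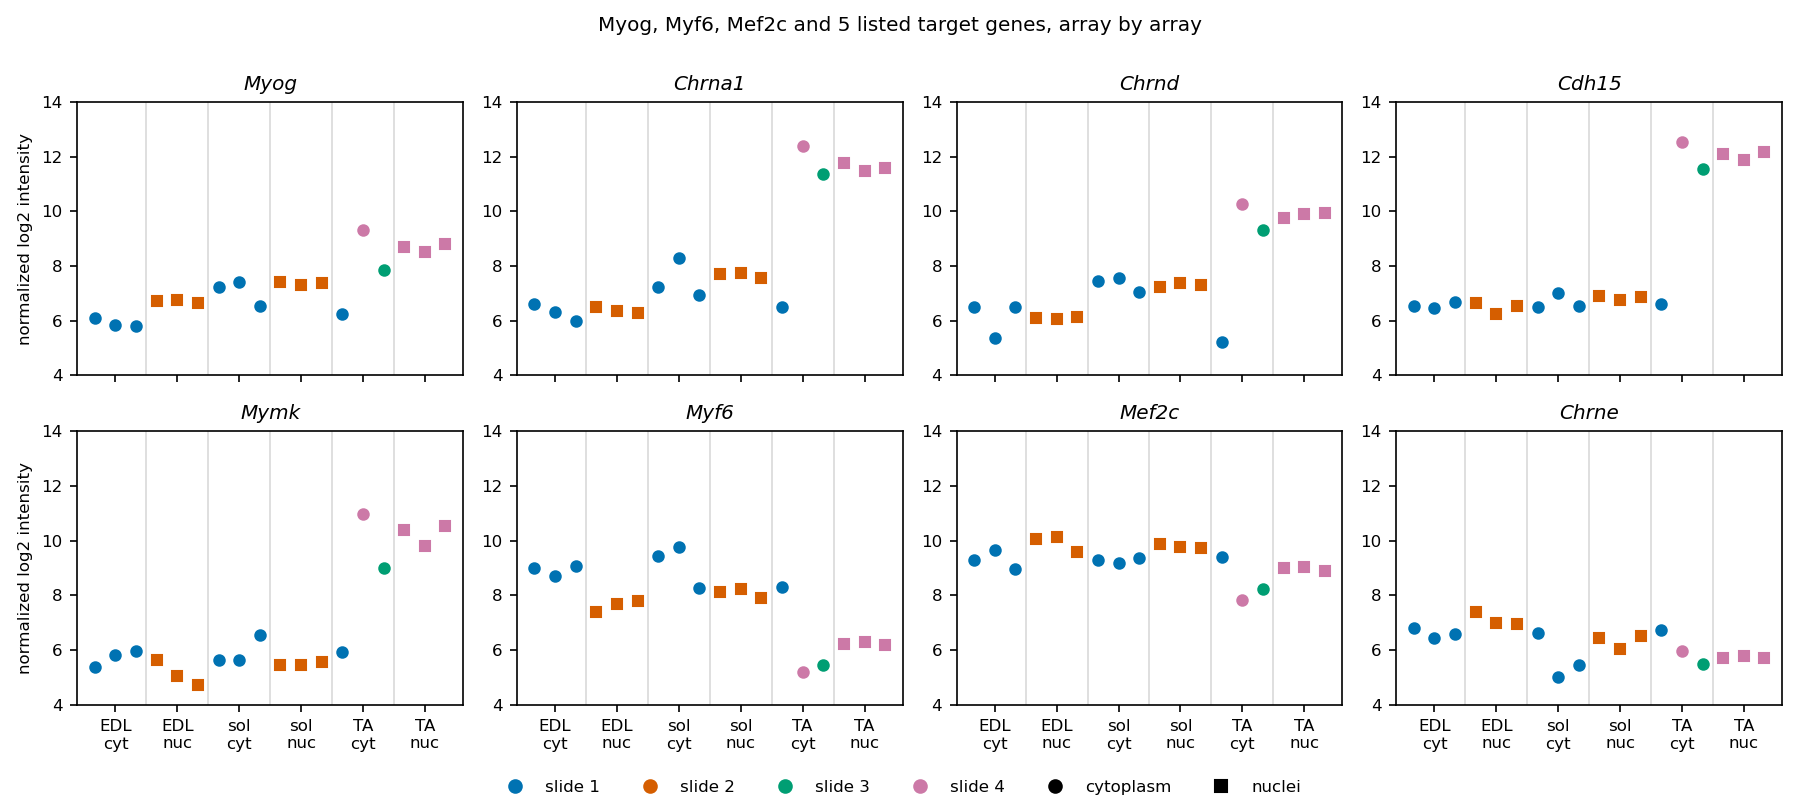
Normalized log2 intensity (y axis, 4 to 14 in each panel) of Myog, Myf6, Mef2c and 5 listed target genes on each of the 18 arrays (x axis, 3 arrays per group in replicate order), coloured by slide, with circles for cytoplasm and squares for nuclei. Cdh15 lies between 11.55 and 12.53 on 5 TA arrays and at 6.60 on TA cytoplasm 1, close to all EDL and soleus arrays.

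Some of the listed target genes separated the TA arrays. Of the 17 targets with a value on all 18 arrays, 5 (Cdh15, Chrna1, Chrnd, Mymk and Cdkn1a) lay above every EDL and soleus array on 5 TA arrays but not on TA cytoplasm 1, which 5.42% of all such probes did, and 1 (Chrng) did so on all 6 TA arrays (1.25% of all such probes). The other 11 did neither. The pattern was defined from these same arrays and the list was chosen with earlier results of these data known. The shares of all probes, here and for the targets below, are therefore a description only. The 3 genes that follow were chosen after their values were seen. Cdh15, the M-cadherin gene of satellite cells and myoblasts, read 6.60, 12.53 and 11.55 in TA cytoplasm and 12.12, 11.88 and 12.19 in TA nuclei, against 6.26 to 7.00 on all EDL and soleus arrays. Chrna1, the alpha subunit of the muscle acetylcholine receptor, read 6.51, 12.41 and 11.38 in TA cytoplasm and 11.77, 11.48 and 11.59 in TA nuclei, against 6.00 to 8.29 elsewhere. Mymk, which encodes the fusion protein myomaker, read 5.91, 10.98 and 8.99 in TA cytoplasm and 10.38, 9.80 and 10.52 in TA nuclei, against 4.73 to 6.53 elsewhere. For these 3 genes, 5 of the 6 TA arrays lay above every EDL and soleus array and TA cytoplasm 1 lay among them.

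Of the 18 listed targets, 7 were higher and 2 lower in TA than in EDL nuclei, beside 7.72% and 10% of all probes. The 7 were Chrna1 (5.23 ± 0.97, adjusted p = 0.00318, limma), Cdh15 (5.59 ± 0.95, adjusted p = 0.00196), Mymk (5.1 ± 0.80, adjusted p = 0.00121), Mymx, Chrnd, Chrng and Cdkn1a. Chrng, the fetal gamma subunit of the receptor, was higher by 1.39 ± 0.32 (adjusted p = 0.00939) and Chrne, the adult epsilon subunit that replaces it, lower by -1.39 ± 0.36 (adjusted p = 0.0167). The other gene that was lower was Ckm, the muscle creatine kinase (-0.98 ± 0.19, adjusted p = 0.00371). The same 7 targets were higher in TA than in soleus nuclei, where Des and Fbxo32 were the 2 that were lower. Of all probes, 19.9% passed there in either direction. Between soleus and EDL nuclei, 0 of the 18 were higher and 1, Ckm, was lower, beside 1.59% of all probes in either direction.

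Among markers of satellite cells, 2 of 8 tested were higher and 1 lower in TA than in EDL nuclei, and 1 was higher and 1 lower in TA than in soleus nuclei. Of all probes, 7.72% were higher and 10% lower against EDL, and 19.9% passed in either direction against soleus. The part of these markers in the Myog values was not tested. The summed intensity of the 10 listed satellite cell markers was 649 to 766 in EDL cytoplasm, 850 to 959 in EDL nuclei, 628 to 1435 in soleus cytoplasm, 1282 to 1366 in soleus nuclei, 645 to 6442 in TA cytoplasm and 4891 to 5740 in TA nuclei. Without Cdh15, a gene of both lists, the sum of the other 9 was 1055 to 1130 in TA nuclei against 773 to 867 in EDL nuclei and 1173 to 1249 in soleus nuclei, and 518 to 633 in TA cytoplasm against 561 to 663 in EDL and 534 to 1307 in soleus cytoplasm. Cdh15 thus carried the high TA sums, and 2 of the 10 markers were well above background on no TA array. Pax7, the defining satellite cell factor, was well above background on 8 of 18 arrays and at least 2.55-fold higher in TA than in EDL nuclei, where no array read it well above background (fitted adjusted p = 0.0124, limma). In soleus nuclei it was at least 1.90-fold higher than in EDL nuclei, a difference that did not pass the threshold. Calcr, a marker of quiescent satellite cells, was well above background on none. Sdc4, another marker of the list, was lower in TA than in EDL nuclei by -1.04 ± 0.26 (adjusted p = 0.0154).

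Markers of other cells also moved with fraction, beside the member differences given above, and whether they bear on them was not tested. Of all probes, 31.3% were higher in nuclei over the 3 muscles and 38.6% lower. All 7 endothelial markers were higher in nuclei over the 3 muscles, with a summed intensity of 1446 to 4994 on cytoplasm arrays and 5054 to 7206 on nuclei arrays. So were 6 of 6 Schwann cell markers (663 to 1561 and 1379 to 3818), 4 of 5 fibroblast markers (7476 to 24582 and 18585 to 40032), 4 of 7 tested satellite cell markers and 9 of 10 myofiber markers (103922 to 197599 and 168815 to 231672), whereas 3 of 5 macrophage markers were lower (35886 to 41259 and 29740 to 41635).

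Of the 3 E proteins, 2 were higher in nuclei over the 3 muscles and 1 lower, beside 31.3% and 38.6% of all probes. Tcf12 (1.53 ± 0.11, adjusted p = 1.13e-08, limma) and Tcf4 (1.41 ± 0.13, adjusted p = 2.17e-07) were the higher ones and Tcf3 the lower (-0.32 ± 0.13, adjusted p = 0.0354). Tcf12 rose from 4.42 to 4.58 in TA cytoplasm to 6.78 to 6.84 in TA nuclei, and its difference varied with the muscle (interaction adjusted p = 0.0207). The median difference of the E proteins was 1.41, beside -0.08 for all probes.

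Among the inhibitors of myogenic factors, 7 of 10 tested genes were higher in nuclei over the 3 muscles and 0 lower. Of all probes, 31.3% were higher and 38.6% lower. Id1 (1.65 ± 0.15, adjusted p = 2.11e-07, limma) and Id3 (1.55 ± 0.37, adjusted p = 0.0015), which bind E proteins without binding DNA, showed the largest differences of the list, followed by the Notch effector Hes1 at 1.48 ± 0.18. In TA, Id3 read 7.02, 9.64 and 10.8 in the cytoplasm and 9.41, 9.94 and 10.36 in the nuclei. TA cytoplasm 1 thus lay below the TA nuclei arrays, TA cytoplasm 2 among them and TA cytoplasm 3 above them. Id2 had values enough for a test in EDL and soleus only, and was at least 1.89-fold higher in nuclei in soleus, where no cytoplasm array read it well above background (fitted adjusted p = 0.00888). Among the 7, Id4 was well above background on 4 of 18 arrays, and Twist1 was so on no TA cytoplasm array. The list's median was 1.04.

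Of the class IIa histone deacetylases, which repress Mef2 proteins, Hdac4 (1.48 ± 0.24, adjusted p = 6.74e-05, limma), Hdac5 (1.36 ± 0.38, adjusted p = 0.00474) and Hdac9 (1.06 ± 0.22, adjusted p = 0.000476) were higher in nuclei and Hdac7 lower (-0.37 ± 0.09, adjusted p = 0.00271). Of 8 tested coactivators 4 were higher and 1 lower, beside 31.3% and 38.6% of all probes. Vgll4 (1.55 ± 0.19) and Maml1 (1.14 ± 0.21) led, and Carm1 was the lower one at -0.23 ± 0.10. Of 6 tested upstream regulators 0 were higher and 1 lower, beside the same shares of all probes. The lower one was Pax3, which acts above the myogenic factors in the embryo (fitted adjusted p = 2.82e-06, limma). No soleus or TA nuclei array read Pax3 well above background, and its nuclei were at least 2.82-fold lower than the cytoplasm in soleus and at least 2.47-fold lower in TA.

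Of the 18 targets, 8 were higher in nuclei over the 3 muscles and 0 lower, beside 31.3% and 38.6% of all probes. The median of the list was 0.51. The largest differences were those of Myh3, the embryonic myosin heavy chain (2.11 ± 0.57, adjusted p = 0.00365, limma), and Nr4a1, an immediate early gene with Mef2 sites (1.42 ± 0.21, adjusted p = 1.94e-05). Ckm (0.66 ± 0.11) and Des, encoding desmin (0.50 ± 0.11), were higher too. The acetylcholine receptor genes did not pass, with 0.59 ± 0.56 for Chrna1, -0.06 ± 0.18 for Chrng and 0.27 ± 0.21 for Chrne (adjusted p = 0.359, 0.78 and 0.246).

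**Figure D4:**
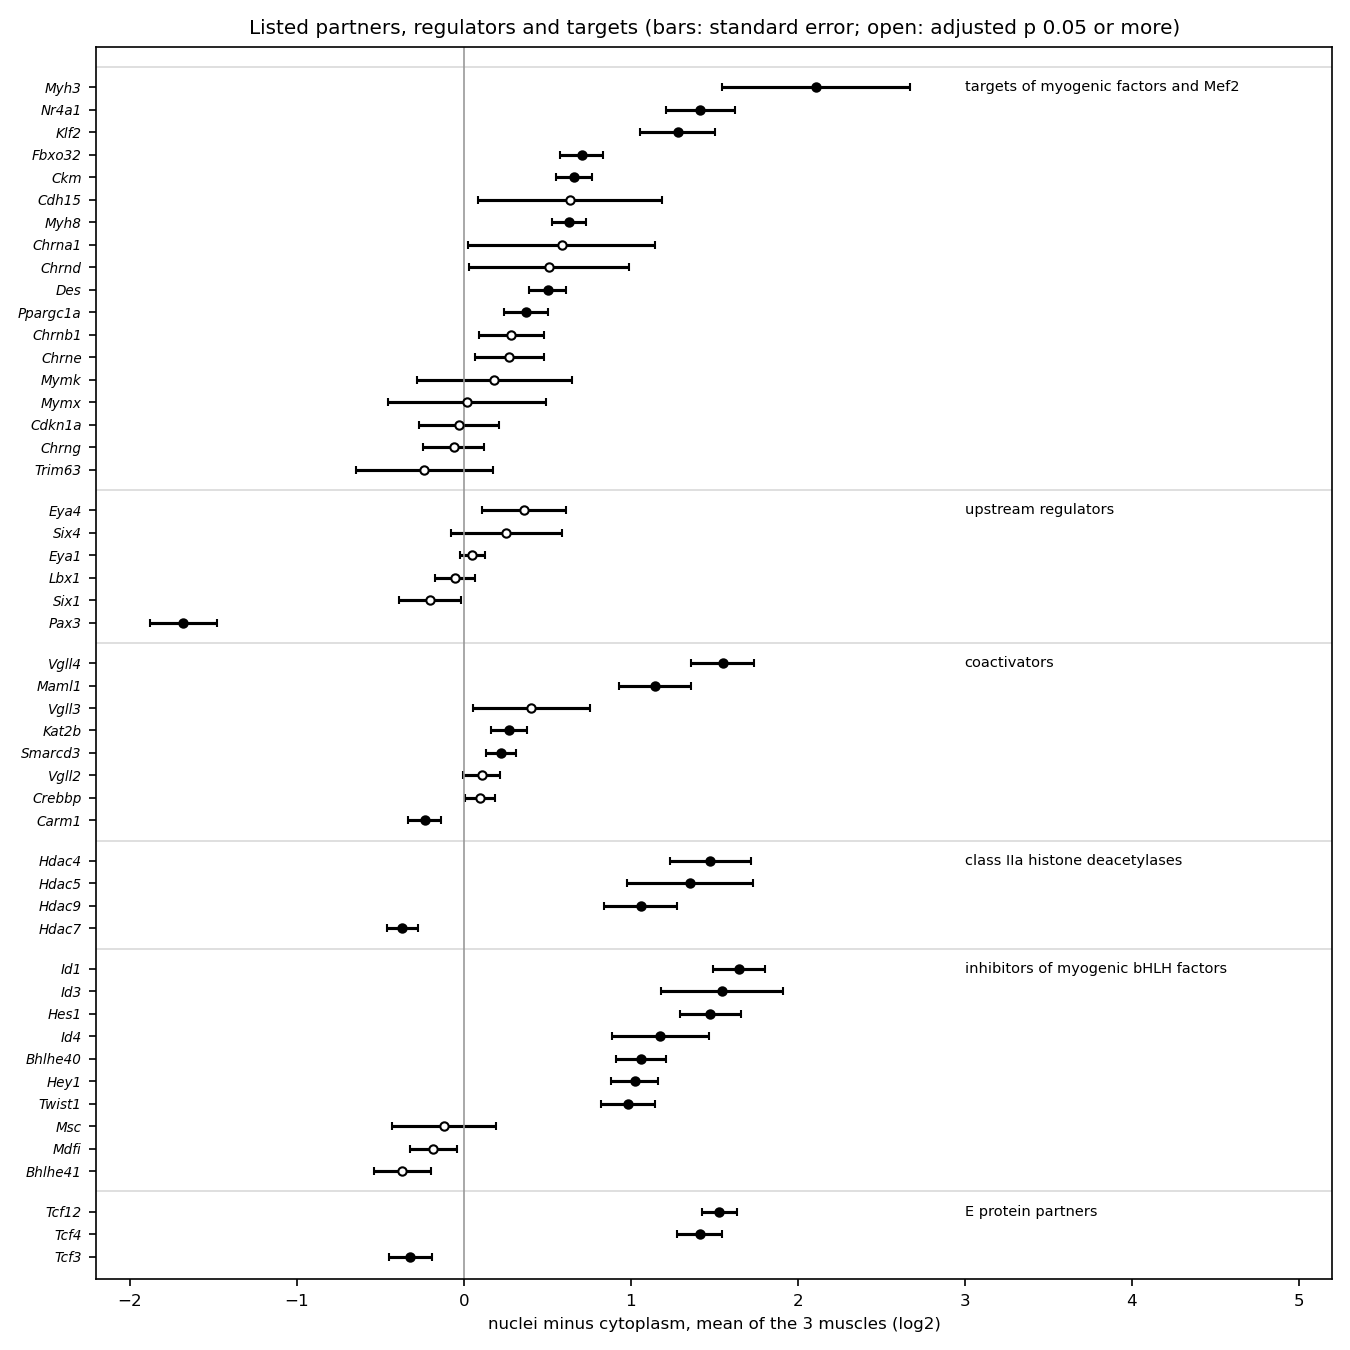
Nuclei minus cytoplasm difference in log2 as the mean of the 3 muscles (x axis) for the tested partner, regulator and target genes (y axis, grouped by list), 1 probe per gene. Bars are standard errors from limma and filled points have an adjusted p under 0.05; most filled points of the E protein, inhibitor and histone deacetylase lists lie above 1. Pax3, Id4, Twist1, Msc and Mymx are among the genes fitted in part on readings not well above background.

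By correlation of levels over the 18 arrays, with 22800 genes searched and the groups and slides shared by all of them, the genes most like each member were as follows. For Myog they were BC029214 (r = 0.959) and Tgfb3 (r = 0.954), and for Myod1 Sp6 (r = 0.967) and 8430426J06Rik (r = 0.964). For Mef2d A_51_P504672 they were Wsb2 (r = 0.973) and Pigyl (r = 0.97), and for Mef2a A_55_P1985159 Gm4868 (r = 0.875) and Mcam (r = 0.861). For Mef2b A_55_P1959784 the nearest with a gene symbol was Aanat (r = 0.989) and for Mef2c D8Ertd738e (r = 0.964). For Myf6 both nearest probes, with r = 0.954 and 0.945, carried no gene symbol.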

How the data were processed

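RNA was labelled for a single colour and hybridized to Agilent mouse arrays, 1 per sample, and the labels gave the group and replicate number of each. The deposited scanner files hold, per the file headers, a processed intensity for each spot made by Feature Extraction 10.7.3.1, background-corrected and detrended within the array and not scaled between arrays. The authors also deposited a quantile-normalized intensity matrix with values for 3687 features, none of them a member probe. The authors' software set the other flags and pixel intensity columns used.

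The processed intensity was taken to log2, and spots that the software did not mark as positive and significant, or marked as outliers (0.263% to 0.568% per array) were set to missing. Arrays were quantile-normalized, the 3671 control spots left out and the spots of a probe averaged. A mean for each of the 6 groups was fitted by limma (version 3.58.1, run in R 4.3.3 beside data.table, version 1.17.8, and statmod 1.5.0) and the spread moderated with eBayes (12 residual and 3.32 prior degrees of freedom). Tests are 2-sided, adjusted by Benjamini and Hochberg over all probes tested in the comparison, with a threshold of 0.05. A probe was tested with values on 2 of 3 arrays of each group involved. Listed genes are given by the probe with the highest mean. Per list the 2 largest called differences each way over the 3 muscles were to be named, beside a few fixed genes, and further listed genes were chosen after their values were seen. Sequence runs were counted in Python 3.11.15 with numpy 2.4.6 and pandas 2.3.3, and plots drawn with matplotlib 3.10.9. The fit was tested on simulated data. Members and lists were chosen with earlier results of these data known. With 3 arrays per group the number of arrays limits the precision.

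Replicate numbers in EDL and soleus stand for the same mice by the labels, so the number pairs those samples, while in TA it does so only in part. Deviations of same-numbered arrays correlated between -0.178 and 0.131 over 45 pairs. Alternatives covered scaling, background, filters, the replicate and slide blocks and the omission of single arrays.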

Additional observations from a re-analysis of the deposited data

Results flagged for a closer look

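The nuclei minus cytoplasm difference of Mef2a A_65_P08239 differed between the muscles by the moderated F test of the interaction in limma (adjusted p = 0.0317), with 0.97 ± 0.27 in EDL, 0.95 ± 0.27 in soleus and a fitted 2.72 ± 0.27 in TA. All 3 nuclei arrays lay above all 3 cytoplasm arrays in each muscle. A lack of overlap in either direction was shown by 67.1% of all probes in EDL, 56.8% in soleus and 60.5% in TA. The TA cytoplasm level was not well above background on any array, so the size in TA is a lower bound, at least 4.36-fold. The interaction call was lost on leaving out any single nuclei array or TA cytoplasm 2. By the same F test the adjusted p was 0.464 with normexp background correction and 0.367 with slide as a random block. Most TA arrays lay on slides without EDL or soleus arrays, so muscle and slide cannot be fully told apart.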

How the results depend on the processing

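Of 1867 values of single probes under the alternatives, 1614 kept their direction and side of the threshold, 129 lost the call, 73 gained it and 51 changed direction. The cause was not tested where none is given. The deposited matrix held no member probe and gave no value. The replicate block changed no call but Mef2c between TA and EDL nuclei (adjusted p = 0.0503, limma) and Mef2d A_55_P1966958 between TA and EDL cytoplasm (0.0504); with it 7 probes passed over the 3 muscles, 4 in EDL, 4 in soleus and 3 in TA.

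With slide as a random block (correlation 0.524), 14723 of 40541 of all probes passed over the 3 muscles and 39 of 40541 for the interaction. It was 5377 of 43656 in EDL, 3106 of 43586 in soleus and 22126 of 43630 in TA. Of the 10 member probes, 3 passed over the 3 muscles, 1 in EDL, 0 in soleus, 5 in TA, 0 for the interaction and 0 between muscles in nuclei. With the nuclei arrays of each muscle as 1 sample these counts were 4, 0, 0, 1, 0 and 0, and 1 between muscles in cytoplasm, from fewer samples. On TA arrays of slide 4 only, an alternative chosen after seeing the data, a lone TA cytoplasm array was left, so only sizes are given. In TA, 5 passed with scaling to the 75th percentile and 5 with normexp, beside 25363 and 22417 of 43630 of all probes. Only spots well above background left 2 in soleus and 0 for the interaction, which could not be tested for Mef2a A_65_P08239 there. With such spots 13450 of 31764 of all probes passed in soleus and 836 of 29017 for the interaction. For the interaction normexp left 0, beside 1341 of 40541 of all probes. Without scaling between arrays 4 passed for the interaction, beside 14982 of 40541 of all probes. Between muscles in nuclei 7 passed without scaling and 2 with all spots. For comparisons between muscles the share of all probes was not counted in the alternatives.

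Leaving out 1 array gave 6 to 8 probes over the 3 muscles and 4 to 8 in EDL (8 without TA cytoplasm 1). It gave 2 to 6 in soleus (2 without soleus cytoplasm 3), 3 to 5 in TA (5 without TA cytoplasm 1) and 0 to 2 for the interaction. Between muscles it gave 1 to 5 in nuclei (1 without TA nuclei 3) and 3 to 8 in cytoplasm (3 without TA cytoplasm 2). Without TA cytoplasm 1, 23133 of 43642 of all probes passed in EDL and 21747 of 42067 in TA. Without soleus cytoplasm 3, 12967 of 41442 passed in soleus.

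Directions turned as follows. Without scaling, where the median of all probes was 0.42 over the 3 muscles, Mef2a A_55_P1985159 was 0.016 over the 3 muscles and 0.31 in soleus, Mef2d A_55_P1966958 was 0.51 over the 3 muscles, 0.55 in EDL, 0.98 in soleus and 0.021 in TA, Myf6 was 0.12 in soleus and 0.019 in TA, Mef2b A_55_P1959784 was 0.48 in soleus, Mef2b A_55_P1963232 was -0.067 in TA, and Mef2c was 0.20 for soleus minus EDL nuclei. With slide as a random block, Myog was -0.15 over the 3 muscles, -0.0086 in EDL, -0.52 in soleus and -0.091 for TA minus soleus cytoplasm, Myf6 was 0.077 over the 3 muscles and 0.51 in TA, Mef2d A_55_P1966958 was 0.062 in EDL, Mef2a A_55_P1985159 was 0.027 in soleus and Mef2b A_55_P1963232 was -0.041 in TA. On slide 4 only, TA gave -0.64 for Myog, 1.05 for Myf6, -0.13 for Mef2b A_55_P1963232 and 0.021 for Mef2d A_55_P1966958. With all spots, Mef2d A_55_P1966958 was 0.081 in EDL and 0.076 in TA, Myf6 was 0.12 in TA, and Mef2c was 0.014 for soleus minus EDL cytoplasm. Mef2b A_55_P1963232 in TA was -0.034 with normexp, -0.042 with spots well above background and -0.16 at the 75th percentile, Mef2a A_55_P1985159 in soleus was 0.015 with normexp and 0.014 with spots well above background, Mef2d A_55_P1966958 in EDL was 0.080 with spots well above background and 0.026 at the 75th percentile, and Mef2c for soleus minus EDL cytoplasm was 0.0068 with normexp and 0.085 at the 75th percentile.

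Leaving out 1 array, the range crossed 0 for Mef2d A_55_P1966958 in EDL (-0.054 to 0.033), Mef2a A_55_P1985159 in soleus (-0.10 to 0.00072), Myf6 in TA (-0.65 to 0.91), Mef2b A_55_P1963232 in TA (-0.13 to 0.29) and, in cytoplasm, for Mef2c (-0.18 to 0.17) and Myf6 (-0.063 to 0.69) for soleus minus EDL and for Myog for TA minus soleus (-0.024 to 1.51). Signal over background limits Myf5, Mef2a A_65_P08239 in TA cytoplasm and Mef2b A_55_P1963232.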
